A study of Homo sapiens with 6 samples.

Results

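LncRNA-sequencing of HCT116 cells was used to follow 10 genes of cell polarity and cell junctions that act upstream of the Hippo pathway: CRB3, MPP5, INADL, PARD3, SCRIB, LLGL1, DLG1, FAT1, DCHS1 and AMOT. They were taken by gene symbol from the deposited mRNA tables, where they are 10 of 19871 symbols and hold 70 of 92866 transcripts. HCT116 is an epithelial colorectal cancer cell line. The series has 3 groups of 2 libraries each, all from this line: a negative control (NC), cells given a GAS5 plasmid to raise the long noncoding RNA GAS5 (GAS5), and cells given siRNA against YAP (siYAP). What the NC cells were given, and whether the 2 libraries of a group came from separate cultures, is not given in the sources used here. The labels list all 3 groups under siRNA, and they do not say which YAP siRNA was sequenced. The tables hold 1 value per group, which is the authors' mean over its libraries. The spread between libraries was therefore not available, no test was possible, and each interval printed here covers counting error only.

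Epithelial cells sort their membrane into an apical and a basolateral face by means of 3 protein complexes that hold each other in place. The Crumbs complex (CRB3, PALS1 and PATJ) and the Par complex (PARD3, PAR6 and atypical protein kinase C) define the apical face and its tight junctions, and the Scribble complex (SCRIB, DLG and LLGL proteins) defines the basolateral face. These complexes, the giant cadherins FAT1 and DCHS1 and the tight junction scaffold AMOT are known to feed into the Hippo kinases or to hold YAP at the membrane, which keeps this transcriptional co-activator out of the nucleus. In the pathway annotation that the deposited tables carry, 7 of the 10 genes had the Hippo signaling term and 8 the tight junction term. DCHS1 carried only the multi-species Hippo term, and FAT1 carried none of these terms.

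Summed by listed symbol, no gene of the 10 differed from NC by a fold of 2 or of 1.5 in either treatment. Most were slightly lower. The Ensembl transcripts of INADL, listed under its newer symbol PATJ, passed a fold of 1.5 downward in GAS5 (log2 fold change -0.59). Both names together had -0.29. A fold of 2 was passed by 2.20% of all genes upward and 0.889% downward in GAS5, and by 1.06% and 1.22% in siYAP. In GAS5 cells, 8 of 10 lay below NC beside 49.8% of all genes. The median log2 fold change of the 10 was -0.18, against 0 over all genes. In siYAP cells, 7 of 10 lay below NC beside 50% of all genes, with a median of -0.19 against 0. The counting intervals of CRB3 and INADL in GAS5 include 0. On Ensembl transcripts alone, which leave out INADL, AMOT lay above NC in both treatments (0.26 and 0.24). The medians were then -0.15 in GAS5 and -0.08 in siYAP. SCRIB and LLGL1, which work in the same complex, lay on opposite sides of NC in each treatment. SCRIB was higher in GAS5 and lower in siYAP, and LLGL1 was lower in GAS5 and higher in siYAP. The SCRIB pattern rests on assembled transcripts, since on Ensembl transcripts alone it was -0.15 in GAS5 and -0.09 in GAS5 against siYAP. Differences were larger among single transcripts, most of them at low counts.

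The label of the knockdown and the cell type were checked first. YAP1 had 3480 mean counts in NC, 2679 with GAS5 and 1444 with siYAP, a log2 fold change of -1.18 in siYAP (95% counting interval -1.25 to -1.12). The YAP target genes checked, CYR61 and CTGF, were not lower in siYAP. CYR61 had 539.5, 1058 and 621 mean counts and CTGF 79.5, 122 and 84 in the same order. After scaling, their log2 fold changes in siYAP were 0.29 (0.17 to 0.41) and 0.16 (-0.15 to 0.48). Of 9 epithelial markers, 5 (EPCAM, CDH1, KRT8, KRT18 and KRT19) exceeded 1 FPKM (fragments scaled by transcript length and by the fragments sequenced) in every group and summed with the others to 3270, 3720 and 4330 FPKM in NC, GAS5 and siYAP. The other 4 (VIL1, CDX1, CEACAM5 and LGR5, markers of intestinal differentiation or stem cells) were under 1 FPKM in every group. Markers of leukocytes, endothelium, fibroblasts and muscle summed to 7.71, 11.9 and 13.1 FPKM. Of these, 7 of 9 were under 1 FPKM in every group, with PTPRC and DCN listed at 0 throughout. Most of the sum came from ACTA2 (5.33, 8.37 and 9.98 FPKM) and COL1A1 (2.2, 3.33 and 2.96 FPKM). The part of these markers in the results was not tested. Summed over all transcripts, the group means came to 27206123 counts in NC, 25521577 with GAS5 and 26298036 with siYAP.

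Levels differed far more between genes than between groups. Compared per length as FPKM summed over transcripts, FAT1 stood highest in NC with 391, followed by DLG1 with 59.8, SCRIB with 49.7, PARD3 with 24.9, CRB3 with 24.1, LLGL1 with 23.9, INADL with 10.7, MPP5 with 8.11, AMOT with 4.23 and DCHS1 with 0.14. With 1 mean per group, it could not be said which neighbours in this order differ beyond their spread. The order was not the same in every group. SCRIB stood above DLG1 in GAS5 (54.6 against 44.5 FPKM), and CRB3 and LLGL1 stood above PARD3 in both treatments.

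**Figure D1:**
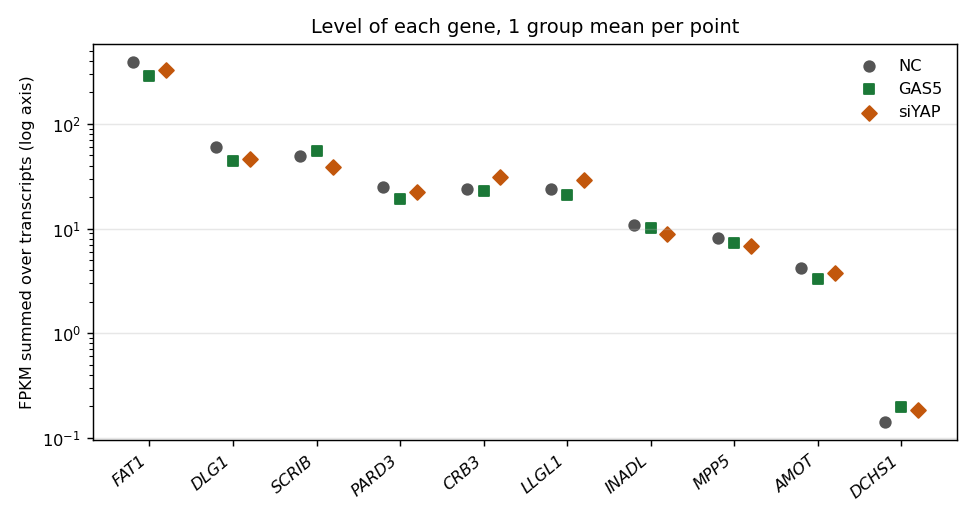
FPKM summed over the transcripts of each gene (vertical axis, log scale) for the 10 genes ordered by their level in NC, with 1 point per group mean and no error bars because single libraries are not in the tables. The genes span from 0.14 FPKM (DCHS1) to 391 FPKM (FAT1) in NC, while the 3 group means of a gene lie close together.

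CRB3, the short transmembrane protein that anchors the Crumbs complex at the apical membrane, had 570.5 mean counts in NC, 495.5 with GAS5 and 699.5 with siYAP. The siYAP mean was the highest and the GAS5 mean the lowest. After scaling, the log2 fold change was 0.38 (95% counting interval 0.27 to 0.49) in siYAP, and -0.08 (-0.21 to 0.04) in GAS5, where the interval includes 0. The gene lies at chr19:6463777-6467221 on the plus strand (GRCh38, GENCODE 29), and all 4 of its annotated transcripts are listed. ENST00000600229, with the most counts, had 293, 232 and 336 counts in NC, GAS5 and siYAP, and ENST00000356762, the only one with a coding sequence of 369 rather than 360 bases, had 194, 175 and 212. ENST00000308243 had 81.8, 88.3 and 150, so its share of the gene was largest in siYAP.

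MPP5, which encodes the scaffold PALS1 that joins CRB3 to PATJ, was lower in both treatments, by nearly the same amount. It had 944.5 mean counts in NC, 751.5 with GAS5 and 757 with siYAP, with log2 fold changes of -0.21 (-0.31 to -0.11) in GAS5 and -0.23 (-0.33 to -0.14) in siYAP. The direct comparison of GAS5 with siYAP gave 0.01 (-0.1 to 0.11). MPP5 lies at chr14:67241109-67335819 on the plus strand. A single assembled transcript, TCONS_00039572, had 58.7 counts in NC and 0.01 and 0.09 in GAS5 and siYAP, and held 6.21% of the NC counts of the gene. On Ensembl transcripts alone, which leave it out, the log2 fold changes of MPP5 were smaller, at -0.13 in GAS5 and -0.15 in siYAP. The 2 main transcripts differ in coding length, with 1923 coding bases in ENST00000555925 and 2025 in ENST00000261681. ENST00000555925 had 551, 540 and 481 counts in NC, GAS5 and siYAP, and ENST00000261681 had 297, 180 and 246. The shorter coding form therefore held more of the gene's counts in every group. ENST00000556345, which carries 372 coding bases, had 20.4, 7.28 and 14.3 counts.

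INADL is the former symbol of PATJ, the multi-PDZ scaffold of the Crumbs complex, and the tables use both names. Under INADL stand 2 transcripts, both assembled from the reads, and under PATJ stand 8 transcripts with Ensembl identifiers. As the symbol INADL, the gene had 1672 mean counts in NC, 1500.7 with GAS5 and 1333.8 with siYAP, with log2 fold changes of -0.04 (-0.11 to 0.03) and -0.24 (-0.31 to -0.17). As PATJ, it had 1728.5, 1056.8 and 1573.2 mean counts, with -0.59 (-0.67 to -0.51) and -0.05 (-0.12 to 0.02). The 2 names thus ranked the treatments in opposite order. Their sum had 3400.5, 2557.5 and 2907 mean counts, with -0.29 (-0.35 to -0.24) in GAS5 and -0.14 (-0.19 to -0.09) in siYAP. Whether reads were split unevenly between the assembled and the annotated transcripts was not tested.

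Within these names, TCONS_00002504 carried nearly all INADL counts in NC (1672, with 1469 in GAS5 and 1161 in siYAP), and TCONS_00002505 was listed at 0 in NC, 31.7 with GAS5 and 173 with siYAP. Of the PATJ transcripts, ENST00000371158, with 5403 coding bases, had 1262 counts in NC, 858 with GAS5 and 1261 with siYAP. ENST00000316485, which ends earlier and has 3543 coding bases, had 428, 169 and 284. The gene lies at chr1:61742406-62178675 on the plus strand. An in-frame coding exon of 78 bases at chr1:61914587-61914664 is present in the long form and absent from the short one. The short form also lacks the exons beyond its earlier end, so the share follows whole models and not this exon alone. The exon is shown because its share differed most from NC among the exons that 10% to 90% of NC counts held. Transcripts that hold it had 74.7% of the counts in NC (95% Wilson interval 73.2 to 76.1), 83.6% (81.9 to 85.1) with GAS5 and 81.6% with siYAP. These counts are not corrected for length. They also leave out the assembled INADL transcripts, which had 1672 of the 3400.5 NC counts of both names. Per length, the long and the short form were nearer in NC, with 5.34 and 4.18 FPKM.
PATJ exon of 78 bases: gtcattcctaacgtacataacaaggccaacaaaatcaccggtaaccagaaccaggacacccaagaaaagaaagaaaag

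PARD3, the scaffold that recruits PAR6 and atypical protein kinase C to tight junctions, had 2438.5 mean counts in NC, 1792.5 with GAS5 and 2211.5 with siYAP. Its mean was lowest in GAS5, with a log2 fold change of -0.33 (-0.39 to -0.26), against -0.06 (-0.11 to 0) in siYAP. The direct comparison of GAS5 with siYAP gave -0.28 (-0.35 to -0.22). PARD3 spans 705766 bases at chr10:34109560-34815325 on the minus strand. ENST00000374790 had 532 counts in NC, 288 with GAS5 and 557 with siYAP, and ENST00000544292 had 507, 260 and 430, so the GAS5 mean of both was low. By contrast, ENST00000346874 had 406, 341 and 422, and ENST00000340077 had 794, 613 and 615. ENST00000374776 had 40.1, 75 and 36.1 counts, and ENST00000374768 had 54.6, 52.6 and 22.6. ENST00000374789 went from 100 in NC and 124 in GAS5 to 0 in siYAP, ENST00000374794 was listed at 0, 30.7 and 0, and the assembled TCONS_00016500 had 3.83, 8.12 and 129.

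Summed over transcripts by whether they hold a coding exon, the exon shares of PARD3 differed in both directions. The 3 in-frame exons below, on the minus strand of GRCh38, are shown because they are the PARD3 exons that 10% to 90% of the NC counts of the spanning Ensembl transcripts held. The exon of 39 bases at chr10:34372498-34372536 was held by 54.7% of these counts in NC, 62.3% with GAS5 and 50.3% with siYAP. For the exon of 132 bases at chr10:34450317-34450448, the shares were 71.6%, 78.4% and 65.8%. Both stood higher than NC in GAS5 and lower in siYAP, so the treatments differed from each other more than either did from NC. The exon of 111 bases at chr10:34284135-34284245 had 60.9%, 52.5% and 56.9%, lower in both treatments. The 3 exons lie partly on the same transcripts, so their shares are not independent. These shares rest on estimated counts of whole transcripts, not on reads across junctions, and they are not corrected for transcript length.
PARD3 exon of 39 bases: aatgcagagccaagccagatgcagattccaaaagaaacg
PARD3 exon of 132 bases: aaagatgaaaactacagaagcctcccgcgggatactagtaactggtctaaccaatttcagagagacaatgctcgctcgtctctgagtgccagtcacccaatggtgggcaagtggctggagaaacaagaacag
PARD3 exon of 111 bases: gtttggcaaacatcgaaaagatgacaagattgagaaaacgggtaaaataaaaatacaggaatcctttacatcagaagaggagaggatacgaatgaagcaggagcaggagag

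DLG1, a basolateral scaffold of the Scribble complex with PDZ, SH3 and guanylate kinase domains, was lower in both treatments. It had 3626.5 mean counts in NC, 2564.5 with GAS5 and 2781 with siYAP, with log2 fold changes of -0.38 (-0.43 to -0.33) and -0.30 (-0.35 to -0.25). GAS5 and siYAP differed by less, at -0.10 (-0.15 to -0.04). The gene lies at chr3:197042560-197299300 on the minus strand and has 20 transcripts in the tables, the most of the 10 genes. The 4 transcripts with the most counts, not corrected for length, were lower in both treatments. ENST00000450955 had 1461 counts in NC, 1027 with GAS5 and 1065 with siYAP, and ENST00000357674 had 600, 472 and 512. ENST00000419354 had 562, 434 and 462, and ENST00000422288 had 312, 229 and 237.

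Several DLG1 transcripts with fewer counts differed more, and some of them rank higher per length, such as ENST00000456699 with 5.6 FPKM in NC against 4.38 for ENST00000357674. ENST00000448528 had 142 counts in NC, 15.4 with GAS5 and 156 with siYAP. ENST00000456699 had 98.1, 21.3 and 9.22, ENST00000452595 had 88.8, 40.5 and 16.7, and ENST00000346964 had 20.1, 1.61 and 0. These 3 were lower in both treatments, while ENST00000392382 was higher, with 15.4, 24.8 and 34.1. Of the others with at least 50 counts in a group, ENST00000419553 had 106, 56.4 and 78.4, ENST00000392380 had 102, 138 and 109, and ENST00000436682 had 80.6, 60.2 and 73.6. After scaling, ENST00000392380 lay above NC in both treatments (0.54 and 0.21).

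The alternative exons of DLG1 between its SH3 and guanylate kinase domains kept nearly the same shares. Between the SH3 and guanylate kinase domains, the spanning Ensembl transcripts hold either an exon of 34 bases at chr3:197075837-197075870 or one of 97 bases at chr3:197076586-197076682, which some transcripts extend to 100 bases. This pair is shown because it stayed close to its NC split while the gene's counts were lower. The shorter exon was held by 35.0% of counts in NC (33.8 to 36.2), 33.3% (31.9 to 34.7) with GAS5 and 36.5% with siYAP, and the longer one by 65.0%, 66.7% and 63.5%. An in-frame exon of 99 bases at chr3:197161640-197161738 was held by 24.3% (23.3 to 25.3) in NC, 24.4% with GAS5 and 27.9% (26.7 to 29.2) with siYAP. Its counting interval in siYAP thus lay above that in NC. In the longer sequence below, the capitals mark the bases that the shorter version of the exon lacks.
DLG1 exon of 34 bases: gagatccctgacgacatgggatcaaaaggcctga
DLG1 exon of 100 bases: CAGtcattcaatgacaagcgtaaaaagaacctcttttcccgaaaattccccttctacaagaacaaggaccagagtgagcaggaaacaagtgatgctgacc

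**Figure D2:**
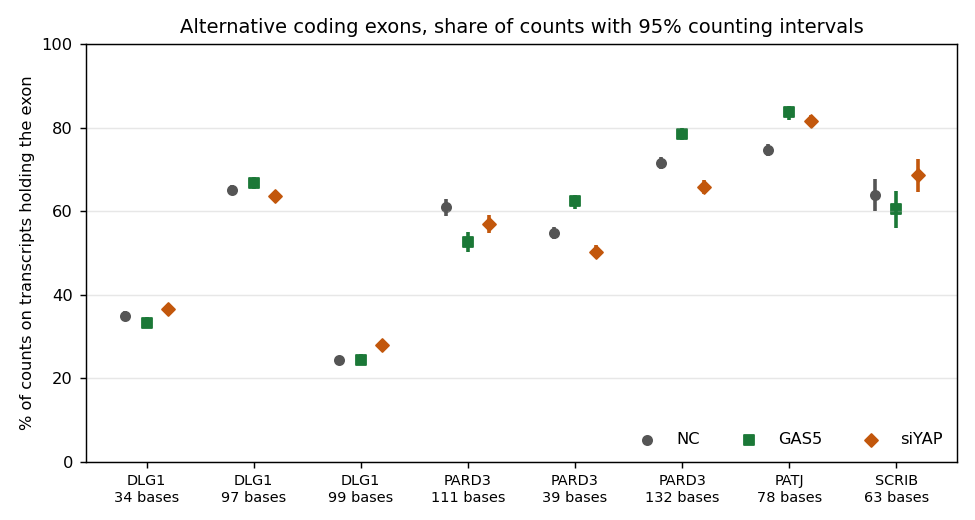
Percent of a gene's spanning Ensembl counts on transcripts that hold each alternative coding exon (vertical axis, 0 to 100), by group. Bars are 95% Wilson intervals that cover counting error only, and counts are not corrected for transcript length. The shares of the DLG1 exons of 34 and 97 bases lie close together in the 3 groups, and its exon of 99 bases is highest in siYAP. The PATJ exon is higher in both treatments (83.6% and 81.6% against 74.7% in NC), and the PARD3 exons of 39 and 132 bases are highest in GAS5 and lowest in siYAP.

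LLGL1, which encodes the basolateral protein that atypical protein kinase C displaces from the apical membrane, had 2826.5 mean counts in NC, 2341 with GAS5 and 3338.5 with siYAP. The treatments lay on either side of NC. The log2 fold change was -0.15 (-0.21 to -0.1) in GAS5 and 0.33 (0.27 to 0.38) in siYAP, and GAS5 against siYAP gave -0.49 (-0.55 to -0.44). The gene lies at chr17:18225587-18244875 on the plus strand. ENST00000316843 carried almost all of its counts, with 2826, 2341 and 3338, so the gene and its main transcript show the same pattern.

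SCRIB, the scaffold that gives its name to the complex, had the opposite pattern. It had 5877 mean counts in NC, 6250.5 with GAS5 and 4383.5 with siYAP. The log2 fold change was 0.21 (0.17 to 0.24) in GAS5, where it was the only gene besides DCHS1 above NC, and -0.34 (-0.38 to -0.30) in siYAP. GAS5 against siYAP gave 0.53 (0.49 to 0.57), the largest difference between the treatments among the 10 genes. Nearly all of it came from transcripts assembled from the reads, which held 94.6% of the NC counts of the gene. TCONS_00139122 had 3560 counts in NC, 3942 with GAS5 and 2484 with siYAP, and TCONS_00139123 had 2001, 2046 and 1617. The Ensembl transcripts did not share the pattern, since ENST00000356994 had 194, 144 and 179 counts and ENST00000531942 had 109, 94.5 and 81.8. ENST00000356994 is 5218 bases long and ENST00000531942 only 421, with 1.34 and 9.3 FPKM in NC. An in-frame exon of 63 bases is among their differences. It was held by 63.9%, 60.4% and 68.7% of their counts, which are not corrected for length and leave out the assembled transcripts. On Ensembl transcripts alone, the log2 fold change of SCRIB in GAS5 was -0.15, so its direction rests on the assembled transcripts.

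FAT1, a giant atypical cadherin that restrains YAP through the Hippo kinases, was among the most abundant mRNAs of these cells. Its 99777.5 mean counts in NC were 0.367% of all counts and ranked 12 among all symbols, although per length it ranked 188. It was lower in both treatments, with 69474 mean counts after GAS5 and 82153 after YAP siRNA. The log2 fold changes were -0.40 (-0.41 to -0.39) and -0.19 (-0.20 to -0.19), narrow intervals that reflect the depth and not the spread between libraries. FAT1 lies at chr4:186587783-186726722 on the minus strand. ENST00000441802, with 13764 coding bases in 26 coding exons, had 91045 counts in NC, 63501 with GAS5 and 75153 with siYAP. ENST00000509647, a model of 2 exons at the start of the gene, had 8658, 5939 and 6940, so both were lowest in GAS5. ENST00000614102 had 32.5 counts in NC and was listed at 0 in both treatments, and ENST00000512772 had 35.4, 26.2 and 56.

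DCHS1, the cadherin that binds FAT family members on the neighbouring cell, was close to absent from these cells. It had 42 mean counts in NC, 54.5 with GAS5 and 52 with siYAP, or 0.14, 0.195 and 0.185 FPKM. Its log2 fold changes of 0.47 (0.08 to 0.90) and 0.38 (-0.02 to 0.81) have the widest counting intervals of the 10 genes, and the latter includes 0. The annotated transcript, ENST00000299441 at chr11:6621323-6655854 on the minus strand, had 42, 54.5 and 44.7 counts. An assembled one, TCONS_00023441, was listed at 0, 0 and 7.25.

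AMOT, an angiomotin that binds YAP directly and links it to actin and tight junctions, had 605.5 mean counts in NC, 443.5 with GAS5 and 504 with siYAP. The log2 fold change was -0.33 (-0.46 to -0.21) in GAS5 and -0.18 (-0.30 to -0.06) in siYAP. The gene lies at chrX:112774503-112840815 on the minus strand. Assembled transcripts held 60.9% of its NC counts, and the largest of them, TCONS_00148362, had 337 counts in NC, 150 with GAS5 and 164 with siYAP. On Ensembl transcripts alone, AMOT was higher than in NC, at 0.26 in GAS5 and 0.24 in siYAP. Its direction therefore differs between the assembled and the annotated transcripts.

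The annotated AMOT transcripts moved apart from each other as well. Both ENST00000524145 and ENST00000371959 have 3252 coding bases, which is the long isoform whose N-terminus carries the motifs that bind YAP. ENST00000524145 had 170 counts in NC, 138 with GAS5 and 82.2 with siYAP, while ENST00000371959 had 23.1, 95.4 and 99. The short isoform, which lacks that N-terminus, is encoded by ENST00000304758 with 2025 coding bases and had 16.3, 30.6 and 36.8. ENST00000371962 had 28 counts in NC, 46.9 in siYAP and was listed at 0 in GAS5, and the assembled TCONS_00148366 had 31.1, 29.9 and 74.9.

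**Figure D3:**
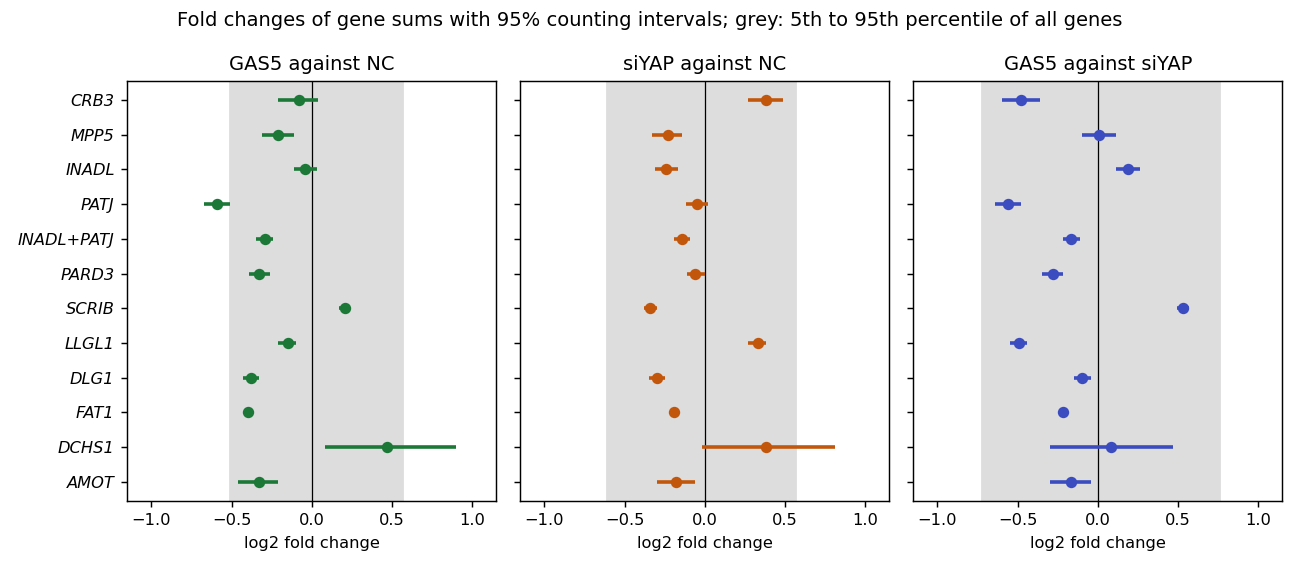
Log2 fold change of each gene sum (horizontal axis) in the 3 comparisons, with bars for the 95% counting interval of single genes and grey bands for the range from the 5th to the 95th percentile over all genes tested. The points for the 10 genes lie inside the band in each comparison (for example -0.51 to 0.57 in GAS5 against NC), and PATJ at -0.59 in GAS5 lies just outside it.

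The counts of these genes past each fold were set beside those of all genes. All 10 genes passed the filter on low counts in each comparison. In GAS5 against NC, 0 of 10 passed a fold of 1.5. Of the 13379 genes tested, 4.81% were higher by that fold and 3.68% lower, 8.48% in all. PATJ, the other name of INADL and not among the 10 symbols, passed it downward (-0.59). At a fold of 1.2, chosen after the values were seen, 1 gene was higher (DCHS1) against 17.2% of all genes and 4 were lower (AMOT, DLG1, FAT1 and PARD3) against 16.3%, which is 5 of 10 beside 33.5% either way.

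In siYAP against NC, 0 of 10 passed 1.5, against 4.69% higher and 5.63% lower among 13308 genes, 10.3% in all. At 1.2, 3 were higher (CRB3, DCHS1 and LLGL1) against 20.6%, and 2 were lower (DLG1 and SCRIB) against 21.4%, 5 of 10 beside 42.0% either way. Both comparisons use the same NC means, so their values for a gene are not independent. Of genes tested in both, 28.6% were below 0 in both and 43.6% had opposite signs.

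The direct comparison of GAS5 with siYAP does not use NC. Again 0 of 10 passed a fold of 2 (2.64% higher and 2.02% lower among 13386 genes) or of 1.5 (8.72% and 7.96%, 16.7% in all). At 1.2, SCRIB was higher in GAS5, beside 24.5% of all genes, and CRB3, LLGL1 and PARD3 were lower, beside another 24.5%, so 4 of 10 passed beside 49.0% either way. Below 0 stood 6 of 10 against 49.7%, with a median of -0.13. Since none of the 10 listed symbols passed a fold of 1.5 against NC, the planned search for genes with the most similar pattern named none. PATJ, which passed it in GAS5, was outside that search.

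Of the 70 transcripts of the 10 genes, 14 were listed at 0 in every group and 48 passed the filter in each comparison with NC. In GAS5, 3 passed a fold of 2 higher and 8 lower, which is 11 of 48 in all, beside 10.7% higher, 9.50% lower and 20.2% either way of all transcripts tested. In siYAP, 6 were higher and 7 lower, 13 of 48 in all, beside 9.46%, 11.4% and 20.9%. In GAS5 against siYAP, 5 of 46 were higher and 6 lower, 11 in all, beside 12.5%, 10.1% and 22.6%. The transcripts past a fold of 2 in either comparison with NC numbered 18 and came from 6 of the genes. Of them, 10 had fewer than 10 counts in a group and 6 were listed at 0 in a group. Among the 21 transcripts with at least 100 counts in every group, 1 passed, the AMOT transcript TCONS_00148362 in GAS5 (-1.06 on the log2 scale), which is near the 4.72% of all 18318 transcripts at that level. These numbers leave out the transcripts listed under PATJ. Of those, ENST00000316485, with 428, 169 and 284 counts, also passed in GAS5 (-1.22), and ENST00000371158 did not (-0.45). With PATJ included, 12 of 52 passed a fold of 2 in GAS5, 13 of 51 in siYAP and 11 of 49 in GAS5 against siYAP.

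**Figure D4:**
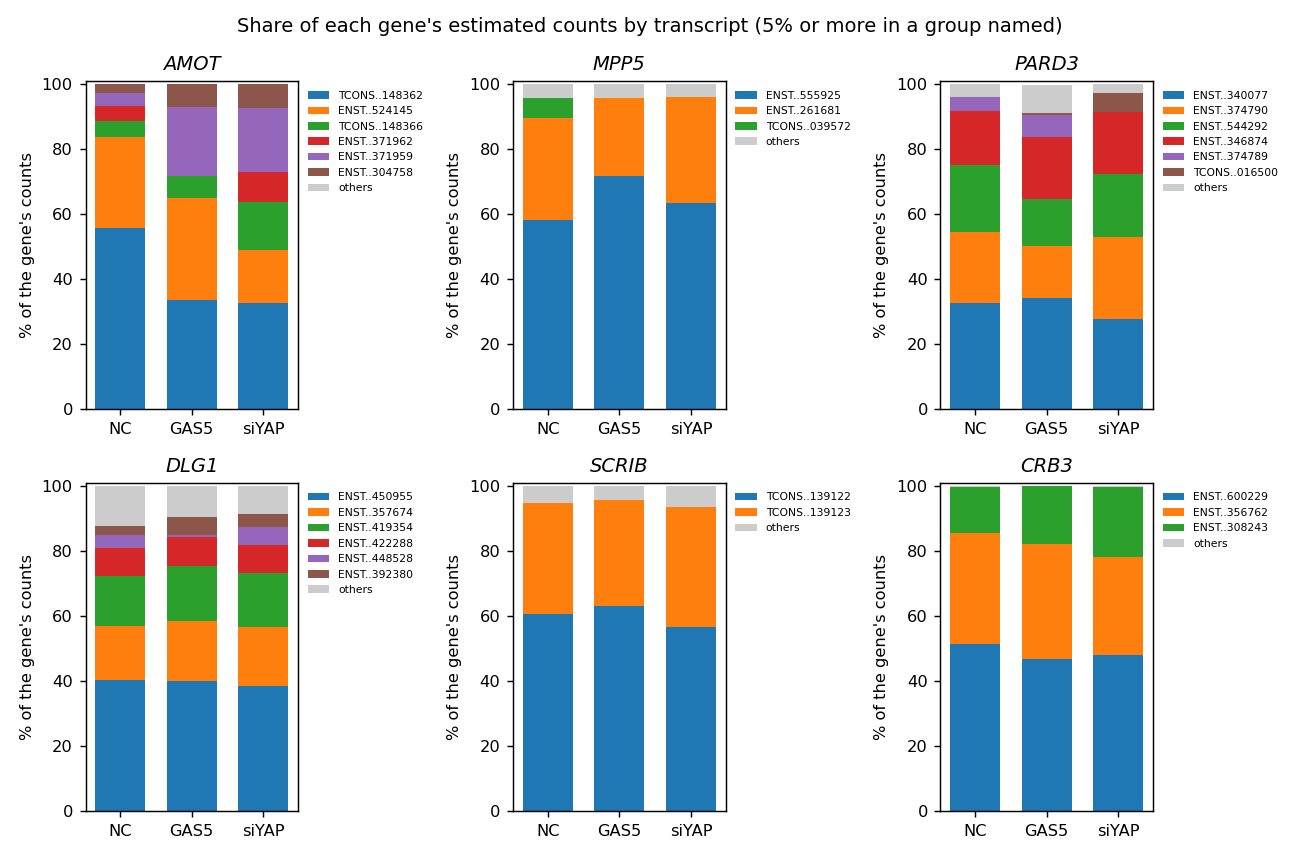
Stacked bars of the percent of each gene's estimated counts that each transcript holds (vertical axis, 0 to 100) in NC, GAS5 and siYAP, for 6 genes, with transcripts under 5% in every group pooled as others and identifiers shortened. The AMOT bar changes most, where TCONS_00148362 goes from 55.7% in NC to 33.7% in GAS5 and 32.6% in siYAP, while the SCRIB and CRB3 transcripts keep their order.

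The list of other genes of the same complexes and junctions held 57, of which 51 passed the filter. They include the genes with the highest level in NC, CTNNA1 (160 FPKM), CTNNB1 (146 FPKM) and CDC42 (119 FPKM), which encode the catenins of adherens junctions and the small GTPase that activates the Par complex. Their log2 fold changes were -0.16, 0.08 and 0.11 in GAS5 and -0.01, -0.08 and 0.16 in siYAP. In GAS5, 37 of 51 lay below 0 beside 49.8% of all genes, with a median of -0.13. A fold of 1.5 was passed by 1, beside 8.48% of all genes. This was MPP3, a scaffold related to PALS1, with 166.5 mean counts in NC and 261 in GAS5 (log2 fold change 0.76). In siYAP, 19 of 51 lay below 0 with a median of 0.09.

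In siYAP, 2 of these genes were higher by a fold of 1.5 and 2 lower, which is 4 of 51 beside 10.3% of all genes and so near the background. PARD6B, a PAR6 protein of the Par complex, had 643.5 mean counts in NC, 792 with GAS5 and 1031.5 with siYAP (0.76 in siYAP). The other PAR6 genes, PARD6A and PARD6G, had 0.09 and -0.01 in siYAP. FJX1, a relative of the Four-jointed kinase that modifies FAT and Dachsous cadherins in flies, had 258, 322.5 and 370 (0.60). FRMD6, which activates the Hippo kinases at the membrane, was lower with 701.5, 561.5 and 365.5 (-0.85). MARK1, a Par kinase, had 236.5, 202.5 and 146 (-0.60). FRMD6 and MARK1 were thus lower in siYAP than in GAS5 as well.

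By complex, the medians of these genes in GAS5 ranged from -0.40 in the FAT and Dachsous group to 0.05 in the angiomotins. In siYAP they ranged from -0.20 in the Hippo adaptors to 0.32 in the angiomotins. The tested genes of the FAT and Dachsous group were FAT2, FAT4, FJX1 and LIX1L, so no Dachsous gene was among them. In the direct comparison, all 4 of this group (median -0.47) and all 6 Scribble complex genes (-0.38) were below 0. So were both angiomotins (-0.28) and 14 of 16 junction genes (-0.14). There, 5 of 7 Par complex genes (-0.27), 3 of 5 Hippo adaptors (-0.29), 3 of 5 Par kinases (-0.11) and 3 of 6 Crumbs complex genes (0.04) were also below 0. Over all genes, the share was 49.7%. The Scribble complex genes had a median of -0.22 in GAS5, with 6 of 6 below 0, and of 0.21 in siYAP, with 2 of 6 below 0. LLGL2, the relative of LLGL1, had 4507 mean counts in NC, 3710 with GAS5 and 5639.5 with siYAP, with -0.16 in GAS5 and 0.41 in siYAP. It was thus on the same sides of NC as LLGL1. The angiomotins AMOTL1 and AMOTL2 had -0.32 and 0.43 in GAS5 and 0.11 and 0.54 in siYAP, while MPDZ, the closest relative of PATJ, was listed at 0 throughout. Over the whole list, the direct comparison had a median of -0.17, with 40 of 51 below 0. Past a fold of 1.5 stood 6 of 51 beside 16.7% of all genes. FRMD6 was higher in GAS5 (0.63), and 5 were lower: TJP3 (-1.06), DLG4 (-0.94), CDH1 (-0.64), FAT4 (-0.62) and LLGL2 (-0.59). These 5, LLGL2 as the relative of LLGL1, MPDZ, the angiomotins and the Scribble complex as a group were picked out after their values were seen.

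**Figure D5:**
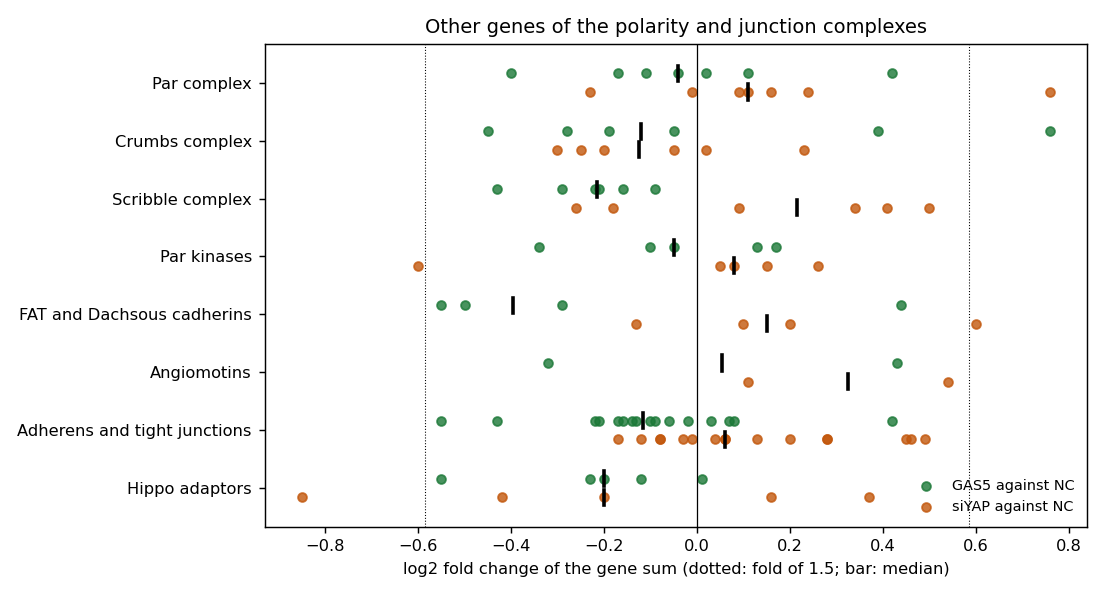
Log2 fold changes of gene sums (horizontal axis) for the 51 tested genes of the same complexes outside the 10, by complex, in GAS5 (green) and siYAP (orange) against NC. Points are single genes, bars are medians and dotted lines mark a fold of 1.5. The medians of the complexes range from -0.40 (FAT and Dachsous cadherins) to 0.05 (angiomotins) in GAS5 and from -0.20 (Hippo adaptors) to 0.32 (angiomotins) in siYAP. The tested genes under FAT and Dachsous cadherins are FAT2, FAT4, FJX1 and LIX1L.

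Promoters were searched for the letters GGAATG, the core motif of TEAD factors through which YAP reaches DNA, on both strands. RefSeq (GRCh38.p14) gave 12 windows for 7 of the genes, with 5 for DLG1 that overlap in part, each from 250 bases before to 50 after a transcription start, and 0 of 12 held the motif, against 14.0% of 35116 such windows. This says only that these letters are not in these windows.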

How the data were processed

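Total RNA of HCT116 cells was made into strand-specific libraries and sequenced on an Illumina HiSeq instrument, per the labels. The submitters' processing notes name TopHat2 2.1.1, and the genome build, annotation and counting tool are not given in the sources used here. The authors deposited 1 table per treatment with estimated counts per mRNA transcript, as group means, and FPKM values that scale fragments by transcript length and library size, with 0.001 written for 0. Columns holding the authors' fold changes, p-values and FDR were not used. The NC counts were identical in both tables for all 92866 transcripts, of which 80864 have Ensembl identifiers and 12002 were assembled. Symbols were read from the siYAP table, and 339 transcripts without one (0.224% of NC counts) were left out of gene sums.

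Estimated counts were summed by symbol, unrounded. When doubled for the 2 libraries, 89.3% of nonzero sums were whole within 0.05. Scaling used edgeR 4.0.16 (TMM, filterByExpr with a minimum count of 10) in R 4.3.3 over all genes or all transcripts of each pair of groups, with a prior count of 2. Intervals are 95% Wilson intervals on the counts of 2 libraries. The quasi-likelihood test planned in edgeR needs single libraries and was not run, nor was DESeq2's test. A fold of 2 or 1.5 described size, and 1.2 was added after the values were seen. Alternatives were DESeq2 1.42.0 size factors, other prior counts and filters, sums of FPKM and Ensembl transcripts only. Calculations used Python 3.11.15 and were tested on simulated data. Transcript models came from GENCODE 29, matched by transcript identifier, and alternative exons are coding exons that other listed transcripts spanning the position lack.

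The 10 genes and the lists were chosen with earlier results of these data known. Named were the 10 genes, their transcripts with at least 50 counts in a group or past a fold of 2 against NC, and, of the other genes of the complexes, those past 1.5 against NC and the 3 with the highest FPKM in NC. PATJ and the exon sums were added after the values were seen. Long noncoding transcripts, GAS5 included, are not analysed here.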

Additional observations from a re-analysis of the deposited data

Results flagged for a closer look

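SCRIB and LLGL1 lay on opposite sides of NC in the 2 treatments. SCRIB was above NC in GAS5 and below it in siYAP, and differed between GAS5 and siYAP by 0.53 on the log2 scale. LLGL1 was below NC in GAS5 and above it in siYAP, and differed by -0.49. Each rests on 1 mean per group, so the difference between the treatments was not tested. Opposite signs stood in 43.6% of all genes tested in both comparisons. The SCRIB values follow assembled transcripts, which hold 94.6% of its NC counts, and with Ensembl transcripts only the difference was -0.09. LLGL1 has no such dependence, as ENST00000316843 carries almost all of its counts.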

How the results depend on the processing

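No paired analysis was possible because each group has only its mean, and leaving out single libraries, DESeq2's test and edgeR's test were not run for the same reason. The choice of scaling alone moved no fold change of the 10 genes by more than 0.04, and sums of FPKM by no more than 0.09. Of 180 fold changes of the 10 genes under alternatives, 6 changed sign. With Ensembl transcripts only, SCRIB became -0.15 in GAS5 against NC and -0.09 in GAS5 against siYAP, and AMOT became 0.26, 0.24 and 0.01 in GAS5, siYAP and the direct comparison. With INADL and PATJ together, GAS5 against siYAP became -0.17. Ensembl transcripts only leave out INADL, which has assembled transcripts alone. For the genes left, the siYAP median was -0.08, against -0.19 for all 10. The number past a fold of 1.2 in siYAP was 3, against 5 for all 10. Of the other genes of the complexes, the number past a fold of 1.5 in GAS5 went from 1 to 2 with FPKM sums, 6 with Ensembl transcripts only and 4 with no filter on low counts. In siYAP it went from 4 to 8 with Ensembl transcripts only, and in the direct comparison from 6 to 11 with no filter. Requiring 10 counts in all groups left 1 of 3 transcripts of the 10 genes past a fold of 2 higher in GAS5, 2 of 8 lower in GAS5 and 2 of 7 lower in siYAP. Sums of FPKM weight the same transcripts by length, the other settings change which transcripts or genes are counted, and no further cause was tested. Of 320 values under alternatives, 268 stayed within the range of the reported value. For numbers of genes past a fold, that range was a factor of 1.5. For single fold changes it was the counting interval, and for medians the typical reach of such intervals. The values outside it include shares of a gene's main transcript taken on FPKM. In NC, these were 35.8% against 55.7% of counts for AMOT and 56.7% against 91.2% for FAT1, while the PARD3 and LLGL1 shares stayed within it. Counting intervals limit DCHS1 most, at 42 to 54.5 mean counts.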
